A study of Mus musculus with 6 samples.

Results

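Integrins are the receptors with which a muscle stem cell holds on to its surroundings, and laminins are the proteins of the basal lamina that several of them bind. Their expression was examined in satellite cells, the stem cells of skeletal muscle, with and without an induced deletion of the NF-YA gene. NF-YA is the DNA-binding subunit that directs the transcription factor NF-Y to CCAAT boxes. The genes were taken by name: every Itga, Itgb and Lama, Lamb or Lamc symbol ending in digits only, with more than 10 expected counts in at least 2 of the 6 libraries. This gave 30 genes out of 35976 in the files, and all 30 symbols found passed the count filter. Counts of members are over the 29 of them that are reported. Integrin genes whose symbol ends in a letter (Itgav, Itgal, Itgam, Itgax and others) fell outside the name rule and are described apart.

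Satellite cells came from hindlimb muscles of mice labelled 5 to 7 weeks old and were grown in growth medium before RNA extraction. NF-YAcKO mice carried NF-YA flox/flox alleles with Pax7-CreERT2, a tamoxifen-inducible Cre driven by Pax7 sequences, which are active in muscle stem cells, and NF-YAfl/fl mice carried the floxed alleles alone. Both genotypes received tamoxifen, dissolved at 20 mg/ml per the labels, and each had 3 libraries. Cells positive for CD31, CD45, CD11b or Sca1 were removed with magnetic beads, and the rest were plated on Matrigel, a basement membrane extract rich in laminin. Deletion was limited to cells that express the Cre, and the labels do not say whether a library is 1 mouse or a pool. P-values therefore measure the spread between these libraries.

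Libraries held 26936230 to 41118984 expected counts. Nfya as a whole did not separate the genotypes, at 27.5 ± 0.874 CPM (counts scaled to library size; SD, n = 3) in NF-YAcKO and 28.7 ± 7.20 in NF-YAfl/fl. In the authors' files, an entry for the deleted allele took 22.3%, 26.4% and 34.2% of what was counted for Nfya in the NF-YAcKO libraries and 0% in every NF-YAfl/fl library, as the genotypes are labelled. By this estimate most Nfya counts in NF-YAcKO stayed on other entries, so these libraries were not free of intact Nfya transcripts. The paper likewise reports depletion of NF-YA in most but not all satellite cells. Pax7, the defining factor of satellite cells, was present in every library (73.5 to 201 CPM). Xist was at 836 to 852 CPM in NF-YAcKO and at most 0.475 CPM in NF-YAfl/fl, with Ddx3y the other way round (at most 0.0957 against 80.9 to 88.6 CPM). Genotype and the sex of the mice, as these sex-linked genes show it, therefore cannot be told apart in any comparison. The study's methods describe male mice for the tamoxifen treatment. The spread between libraries was wider in NF-YAfl/fl (biological coefficient of variation 0.310) than in NF-YAcKO (0.105).

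An integrin is a pair of chains, an alpha and a beta, that spans the membrane and links the matrix outside to actin inside, and the pair decides what is bound. Itgb1 pairs with most alpha chains, those of Itga3, Itga6 and Itga7 making laminin receptors, those of Itga1, Itga2, Itga10 and Itga11 collagen receptors, and that of Itga5 the fibronectin receptor. A laminin is a trimer of an alpha, a beta and a gamma chain. The basal lamina under which satellite cells lie is rich in trimers with the Lama2 chain, and loss of Lama2 or of Itga7 causes congenital muscle disease.

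Of the 29 genes, 2 rose and 5 fell in NF-YAcKO. A gene was called where its log2 fold change was beyond 1 in either direction and its false discovery rate (FDR, adjusted by Benjamini-Hochberg over 17348 genes in the quasi-likelihood fit of edgeR) was under 0.01. Itgb2 and Lamb3 rose. Itgb6, Itga4, Itga10, Lama2 and Lamb2 fell. Over all genes tested the same rule called 4.65% higher and 7.67% lower, so the share of members called higher is near the background while that called lower, 5 of 29, is above it. No test of the list was made. Across the members 11 log2 fold changes were above 0 and 18 below, with a median of -0.08 beside -0.02 over all genes tested, and the median size of the change was 0.845 beside 0.479.

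**Figure D1:**
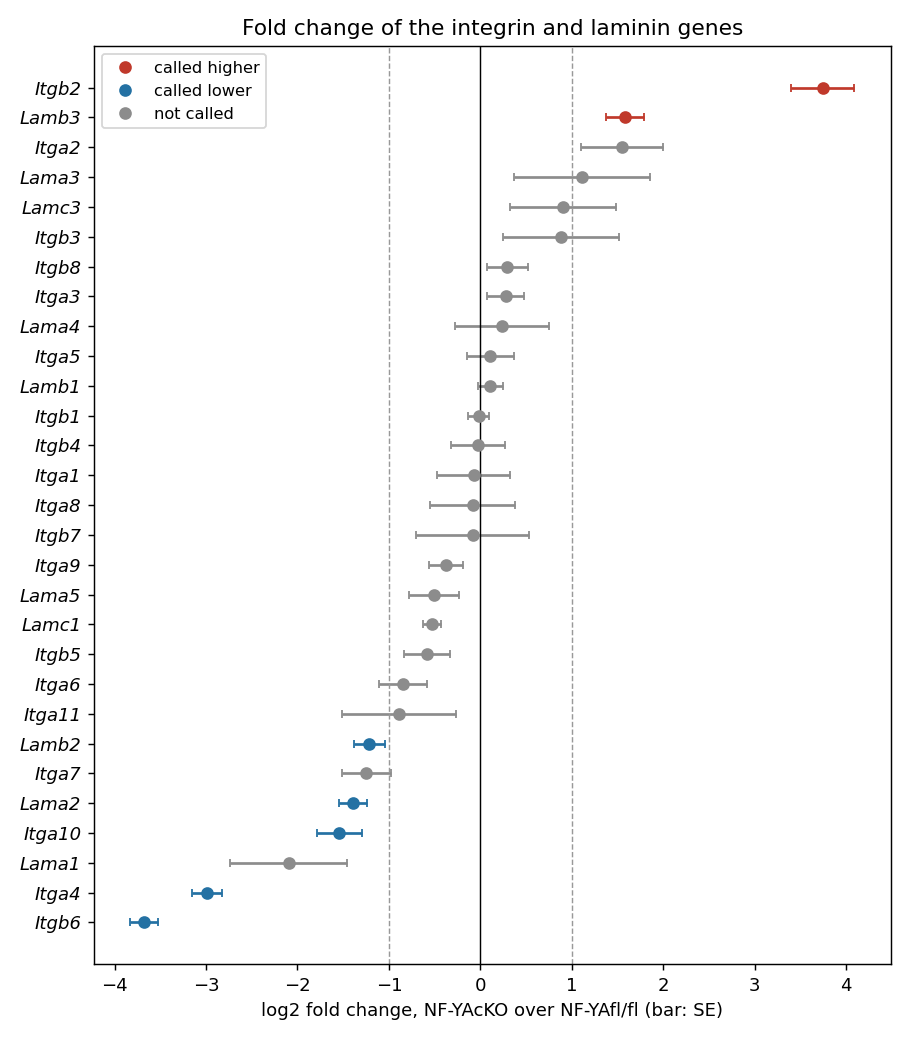
Log2 fold change of each of the 29 genes, NF-YAcKO over NF-YAfl/fl, with its standard error as a horizontal bar (3 libraries per genotype, edgeR) and dashed lines at -1 and 1. Itgb2 (3.74) and Itgb6 (-3.68) stand at the ends, and Itgb1 (-0.01) sits in the middle.

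In 11 of the 29 genes no NF-YAcKO value lay within the range of the NF-YAfl/fl values. NF-YAcKO libraries were all higher in 3 genes (Itgb2, Lamb3, Itga2), where 29.1% of all genes tested did so. They were all lower in 8 (Itgb6, Itga4, Itga10, Itga7, Itga6, Lama2, Lamb2, Lamc1), where 26.2% of all genes did so. The libraries overlapped in the other 18.

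**Figure D2:**
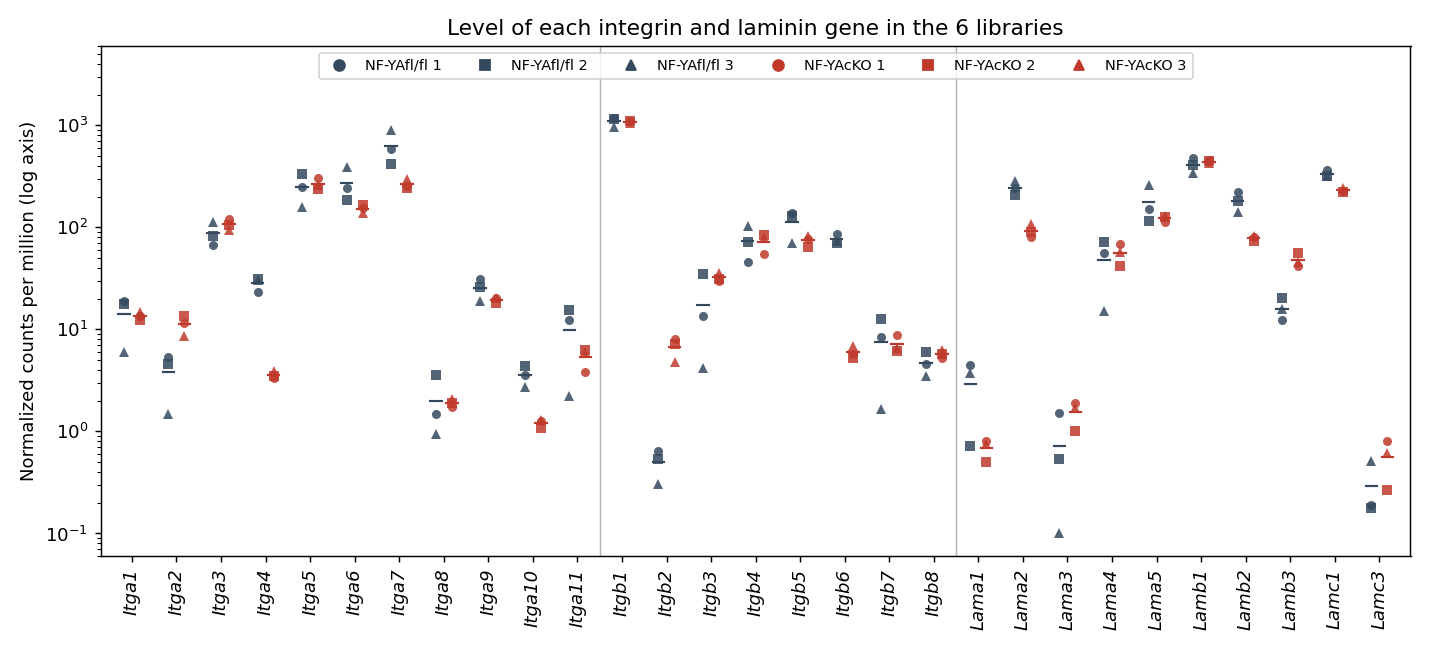
Normalized counts in CPM (log axis) of each gene in the 6 libraries, NF-YAfl/fl in dark blue and NF-YAcKO in red, with the symbol giving the replicate number and a short line the group mean. NF-YAcKO libraries lie close together in most genes, while NF-YAfl/fl replicate 3 (dark triangle) is often the lowest or the highest of its group.

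Among integrin beta chains, the obligate partners of the alpha chains, Itgb1 was the most abundant by far and was at the same level in both genotypes within the spread. On the length-scaled TPM of RSEM it stood at 287 ± 21.8 in NF-YAcKO and 313 ± 84.7 TPM in NF-YAfl/fl (SD, n = 3), which is 84.2% ± 1.16 and 79.0% ± 1.31 of the summed TPM of the 8 beta genes. Its normalized counts were 1095, 1105 and 1051 CPM in NF-YAcKO and 1168, 1154 and 963 CPM in NF-YAfl/fl. Its log2 fold change was -0.01 ± 0.11 (SE; FDR = 0.930), with a sign that turned in 3 alternative settings.

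Itgb6, whose product pairs with that of Itgav in a receptor that activates latent TGF-beta, fell furthest. The gene lies on chromosome 2 of GRCm38 from 60598292 to 60722643 on the minus strand. It was at 85.2, 70.8 and 73.9 CPM in the NF-YAfl/fl libraries and at 5.80, 5.19 and 6.93 CPM in the NF-YAcKO libraries. Every NF-YAcKO library lay far under every NF-YAfl/fl library, and the 3 values within each genotype were close. The change on the log2 scale was -3.68 ± 0.15 (FDR = 5.06e-05), and its call held in all 18 alternatives tried. Its share of the summed beta chain TPM was 4.08% to 5.26% in NF-YAfl/fl and 0.340% to 0.466% in NF-YAcKO. Its partner Itgav was not called, at 413 CPM in NF-YAfl/fl and 380 CPM in NF-YAcKO on average (log2 fold change -0.12 ± 0.25, FDR = 0.726).

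Itgb2 is the beta chain of leukocyte integrins, and it rose most. It lies on chromosome 10 from 77530252 to 77565708, plus strand. The NF-YAcKO libraries held 8.004, 7.19 and 4.82 CPM and the NF-YAfl/fl libraries 0.650, 0.535 and 0.305 CPM. The genotypes were well apart, at low levels throughout, with a log2 fold change of 3.74 ± 0.35 (FDR = 0.000599). This call also held in all 18 alternatives.

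Integrin genes with letter suffixes include the alpha partners of Itgb2. Of 7 such genes 6 were tested, and 2 were called higher (Itgam and Itgax) and 0 lower (edgeR; 1 lower at an unadjusted p under 0.05, and DESeq2 also called 0 lower). Itgam, the gene of CD11b, was at 8.95 ± 2.58 CPM in NF-YAcKO and 1.13 ± 0.298 CPM in NF-YAfl/fl (log2 fold change 2.98 ± 0.31, FDR = 0.000931). Itgax, which misses the level set for naming other genes and was chosen after its values were seen, was at 1.37 ± 0.491 and 0.116 CPM (log2 fold change 3.56 ± 0.49, FDR = 0.00225).

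Markers of macrophages moved the same way. Of 14 genes on a list for these cells, 12 were tested and 11 were called higher, and their summed level was 145 to 275 CPM in NF-YAcKO and 9.77 to 18.9 CPM in NF-YAfl/fl. Lyz2, a lysozyme of myeloid cells, led that sum, at 165 ± 55.5 CPM against 4.08 ± 2.14 CPM, followed by Laptm5 at 16.8 ± 3.03 against 3.79 ± 0.683 CPM. Ptprc, the gene of CD45, was at 1.15 to 3.06 CPM in NF-YAcKO and at 0 to 0.170 CPM in NF-YAfl/fl, and Aif1 was at or near 0 in every library. Of 7 neutrophil genes 5 were tested and 3 were called higher, led in level by Cxcr2 (31.6 ± 3.76 against 13.5 ± 1.78 CPM) and Mmp9 (10.9 ± 4.51 against 0.493 ± 0.443 CPM), while Ly6g and Retnlg had at most 3 counts in any library. The part of these cells in the Itgb2 result was not tested, and in such bulk libraries more cells of a type and more RNA per cell cannot be told apart.

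**Figure D3:**
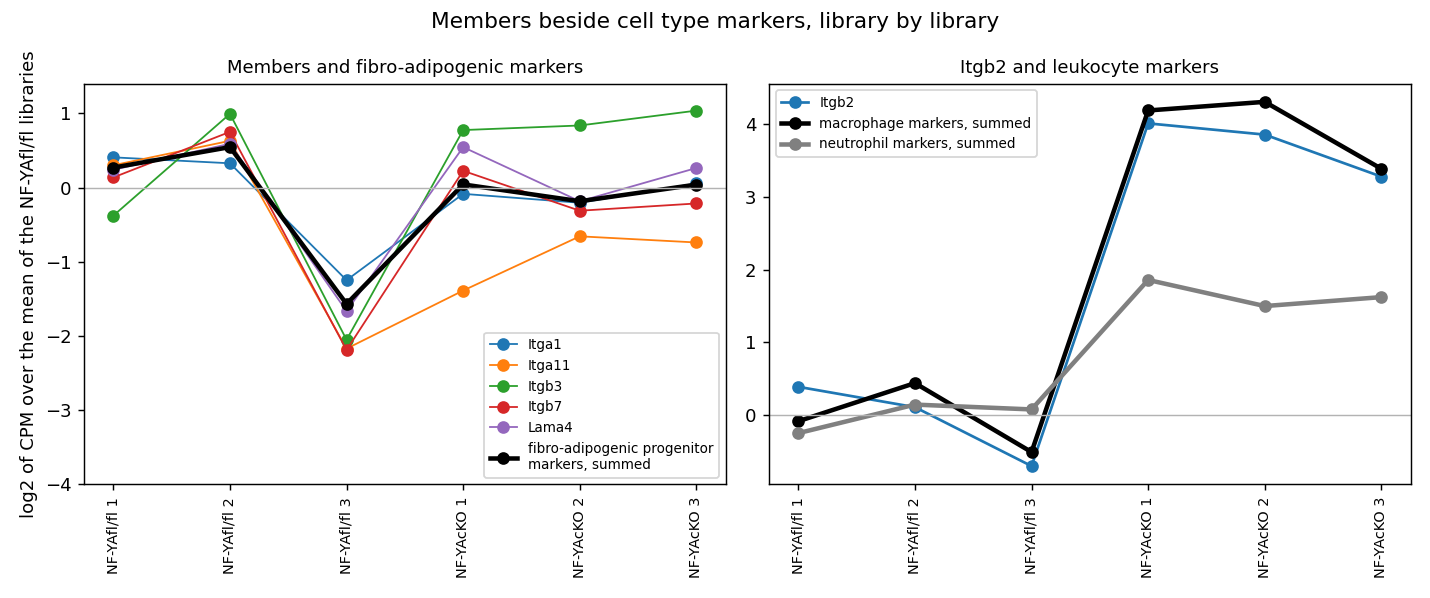
Level in each library as log2 of CPM over the mean of the 3 NF-YAfl/fl libraries. On the left are 5 of the 13 genes lowest of all 6 libraries in NF-YAfl/fl replicate 3, beside the summed fibro-adipogenic progenitor markers. These 5 were picked because of that low value, so their dip is given by the choice. The right panel shows Itgb2 beside the summed macrophage and neutrophil markers. On the left, NF-YAfl/fl replicate 3 is also the lowest library in the marker sum. On the right, Itgb2 and both marker sums are higher in every NF-YAcKO library than in any NF-YAfl/fl library.

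The other 5 beta genes were not called. Itgb5 (74.6 ± 9.33 CPM in NF-YAcKO, 112 ± 36.2 CPM in NF-YAfl/fl), a vitronectin receptor chain, came closest, with a log2 fold change of -0.59 ± 0.25 (FDR = 0.105). Itgb3, another partner of Itgav, was at 29.8 to 35.8 CPM in NF-YAcKO but spread from 4.21 to 34.7 CPM in NF-YAfl/fl (log2 fold change 0.88 ± 0.63, FDR = 0.306). Its change rested on single libraries, at 1.87 (FDR = 0.0262) without NF-YAfl/fl replicate 2 and 0.41 (FDR = 0.360) without replicate 3. Itgb4, the beta chain of the epithelial hemidesmosome, Itgb7 and Itgb8 had log2 fold changes of -0.03, -0.09 and 0.30, each within 2 standard errors of 0.

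Among the laminin-binding alpha chains Itga7, the main one of skeletal muscle, was the most abundant integrin gene after Itgb1 in NF-YAfl/fl (176 ± 35.5 TPM, with 74.1 ± 11.9 TPM in NF-YAcKO). The gene spans chromosome 10 from 128933818 to 128958282 on the plus strand. Its level was 586, 414 and 894 CPM in NF-YAfl/fl and 256, 245 and 298 CPM in NF-YAcKO. All NF-YAcKO libraries were lower and close together, but the NF-YAfl/fl libraries differed among themselves by over 2 times. The log2 fold change of -1.25 ± 0.27 passed the fold threshold and missed the FDR threshold (FDR = 0.0116). It was called in 9 of 18 alternatives (1 of them only a looser FDR threshold), among them DESeq2 (FDR = 4.98e-05), the fit without NF-YAfl/fl replicate 2 (FDR = 0.00352) and the fit with the filter on unrounded counts and library sizes over all genes (FDR = 0.00977), so that its call turns on the processing. Without NF-YAfl/fl replicate 3 the log2 fold change was -0.92, under the fold threshold. Exons of Itga7 overlap Mettl7b on the opposite strand, and whether strand was used in counting is not given in the sources used here.

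Itga6, the other laminin-binding alpha chain of satellite cells, was at 243, 186 and 394 CPM in NF-YAfl/fl and at 154, 165 and 140 CPM in NF-YAcKO. The libraries did not overlap, but the change was under the fold threshold (log2 fold change -0.85 ± 0.26, FDR = 0.0415). Itga3, the laminin receptor chain of many epithelia, was not called (107 ± 13.8 against 88.1 ± 23.6 CPM, log2 fold change 0.28 ± 0.20, FDR = 0.307). Summed over these 3 genes the level was 111 to 136 TPM in NF-YAcKO and 213 to 301 TPM in NF-YAfl/fl. Itga3 made up 16.7% to 22.1% of that sum in NF-YAcKO and 7.16% to 11.6% in NF-YAfl/fl, and Itga7 55.2% to 63.6% and 68.0% to 72.8%. Neither share overlapped between the genotypes, and 0.1 is the smallest two-sided p that an exact permutation test can give for 3 libraries against 3.

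Itga4, the alpha chain that binds VCAM-1 and fibronectin as a partner of Itgb1 or Itgb7, fell clearly. It lies on chromosome 2 from 79255426 to 79333123, plus strand, with exons that overlap Cerkl on the opposite strand. The NF-YAfl/fl libraries had 23.2, 31.0 and 30.8 CPM and the NF-YAcKO libraries 3.32, 3.47 and 3.90 CPM. No NF-YAcKO library came near the lowest NF-YAfl/fl library. On the log2 scale the change was -2.99 ± 0.17 (FDR = 9.13e-05), and the call held in all 18 alternatives. Itga9, the alpha chain closest to Itga4 in sequence, was at 19.6 ± 1.24 against 25.4 ± 6.07 CPM (log2 fold change -0.38 ± 0.19, FDR = 0.150), so that Itga4 made up 10.4% to 12.03% of their summed TPM in NF-YAcKO and 34.6% to 53.3% in NF-YAfl/fl. Vcam1, the ligand, named here after its values were seen, was at 90.4 to 135 CPM in NF-YAcKO and 52.3 to 63.6 CPM in NF-YAfl/fl (log2 fold change 0.86 ± 0.18, FDR = 0.0101).

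Of the 4 collagen-binding alpha chains 1 was called lower and 0 higher (edgeR; 1 higher at an unadjusted p under 0.05, and 1 by DESeq2). Itga10, on chromosome 3 from 96645584 to 96664519, plus strand, with exons shared in part with Gm42957 on the same strand, was at 3.56, 4.37 and 2.71 CPM in NF-YAfl/fl and 1.28, 1.09 and 1.29 CPM in NF-YAcKO. The libraries did not overlap, though all were low. Its log2 fold change was -1.54 ± 0.25 (FDR = 0.00398), and the call was lost without any 1 of the 3 NF-YAcKO libraries (FDR 0.0200 to 0.0263), without NF-YAfl/fl replicate 1 (FDR = 0.0158), with the replicate block (FDR = 0.0169) and on the TPM scale (FDR 0.0267 to 0.0354).

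Itga2, the platelet and epithelial collagen receptor chain, was at 11.5, 13.5 and 8.53 CPM in NF-YAcKO and 5.39, 4.61 and 1.49 CPM in NF-YAfl/fl. NF-YAcKO libraries were all higher. The log2 fold change of 1.55 ± 0.45 missed the FDR threshold (FDR = 0.0328) and passed it in DESeq2 (FDR = 0.00295) and without NF-YAfl/fl replicate 3 (FDR = 0.00613). Itga11, the collagen receptor chain of fibroblasts, was at 12.2, 15.4 and 2.21 CPM in NF-YAfl/fl and 3.79 to 6.30 CPM in NF-YAcKO. It was not called with all libraries (log2 fold change -0.89 ± 0.62, FDR = 0.292) and was called lower without NF-YAfl/fl replicate 3 (-1.37, FDR = 0.00362). Itga1 (log2 fold change -0.07), Itga5 (0.11) and Itga8 (-0.08) were each within 1 standard error of 0, and each turned its sign in some alternative. Itga5 remained a major chain, at 67.2 ± 13.1 TPM in NF-YAcKO and 69.1 ± 36.5 TPM in NF-YAfl/fl.

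Laminin alpha chains carry the sites that integrins and dystroglycan bind. Lama2, the alpha chain of muscle laminin, is on chromosome 10 from 26980036 to 27619758, minus strand, and has exons that overlap Gm48084 on the opposite strand. It was at 241, 208 and 282 CPM in NF-YAfl/fl and at 80.9, 89.96 and 108 CPM in NF-YAcKO. Each NF-YAcKO library was lower than each NF-YAfl/fl library. The log2 fold change was -1.39 ± 0.16 (FDR = 0.00114), and the call held in 17 of 18 alternatives, the exception being the test against a log2 fold change of 1 (FDR = 0.0621).

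Lama5, a widely expressed chain, was at 123 ± 8.32 against 175 ± 74.4 CPM (log2 fold change -0.51 ± 0.28, FDR = 0.188). Lama4, the chain of blood vessels and of mesenchymal cells, was at 41.9 to 69.4 CPM in NF-YAcKO and 15.0 to 71.6 CPM in NF-YAfl/fl (0.24 ± 0.51, FDR = 0.740). Lama1, the chain of early embryonic laminin, split its own group. It was at 4.43, 0.714 and 3.70 CPM in NF-YAfl/fl and 0.507 to 0.797 CPM in NF-YAcKO. The log2 fold change of -2.10 ± 0.64 (FDR = 0.0391) passed in DESeq2 (FDR = 0.00357) and without NF-YAfl/fl replicate 2 (-2.58, FDR = 0.00175). Lama3, an epithelial chain, was at 1.01 to 1.91 CPM and 0.102 to 1.53 CPM (1.11 ± 0.74, FDR = 0.274), and its log2 fold change was 2.22 without NF-YAfl/fl replicate 1 and 0.60 without replicate 3.

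Of the beta chains of laminin, Lamb1 was not called and the other two went opposite ways. Lamb1 was the most abundant laminin gene (85.1 ± 8.26 TPM in NF-YAcKO, 84.8 ± 24.0 TPM in NF-YAfl/fl), with a log2 fold change of 0.11 ± 0.14 (FDR = 0.562). Lamb2, the chain of the neuromuscular junction and of adult muscle, lies on chromosome 9 from 108479736 to 108490530, plus strand. It was at 224, 182 and 140 CPM in NF-YAfl/fl and at 79.7, 73.2 and 82.2 CPM in NF-YAcKO. All NF-YAcKO libraries were lower, with a log2 fold change of -1.21 ± 0.17 (FDR = 0.00251). The call was lost without any 1 NF-YAcKO library (FDR 0.0139 to 0.0185) and on the TPM scale (FDR 0.0144 to 0.0178).

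Lamb3, a chain of the laminin that anchors epithelia, lies on chromosome 1 from 193207699 to 193343878, plus strand. It was at 42.2, 56.2 and 45.5 CPM in NF-YAcKO and 12.2, 20.1 and 15.7 CPM in NF-YAfl/fl. All NF-YAcKO libraries were higher (log2 fold change 1.58 ± 0.21, FDR = 0.00186). Without NF-YAcKO replicate 2 (FDR = 0.0128) or replicate 3 (FDR = 0.0104) it missed the threshold. Lama3, an epithelial partner of this chain, was not called. Of 9 epithelial markers 7 were tested and 0 were called higher by edgeR (4 at an unadjusted p under 0.05, and 3 by DESeq2), and their summed level was 69.9 to 193 CPM in NF-YAcKO and 5.56 to 47.3 CPM in NF-YAfl/fl. Krt8 was at 56.9 ± 35.2 and 6.49 ± 8.22 CPM and Krt18 at 43.5 ± 23.8 and 5.58 ± 5.44 CPM, whereas Epcam was at 0.0965 to 1.66 and 0.0339 to 1.76 CPM. Their part in the Lamb3 result was not tested.

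Gamma chains complete the trimer. Lamc1, the gamma chain of most laminins, was at 230, 221 and 244 CPM in NF-YAcKO and 367, 319 and 318 CPM in NF-YAfl/fl. NF-YAcKO libraries were all lower by a small and even amount, with a log2 fold change of -0.53 ± 0.10 (FDR = 0.00698), under the fold threshold. Counting every fold, 8 of the 29 members had an FDR under 0.01, where 20.3% of all genes tested did. Lamc3 was at 0.265 to 0.797 CPM in NF-YAcKO and 0.178 to 0.509 CPM in NF-YAfl/fl (log2 fold change 0.91 ± 0.58, FDR = 0.253, and 1.55 without NF-YAfl/fl replicate 3).

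The make-up of the laminin chains, in TPM, differed accordingly. Lama2 made up 49.6% to 53.3% of the summed alpha chains in NF-YAfl/fl and 27.4% to 34.4% in NF-YAcKO. Lamb2 made up 28.2% to 31.5% of the beta chains in NF-YAfl/fl and 12.4% to 14.5% in NF-YAcKO. Lamb3 went from 2.44% to 4.61% in NF-YAfl/fl to 10.1% to 13.5% in NF-YAcKO. In each of these the libraries did not overlap. Summed levels did not overlap for the alpha chains (52.0 to 61.2 TPM in NF-YAfl/fl, 27.2 to 36.0 TPM in NF-YAcKO) and overlapped for the beta chains (85.01 to 154 and 104 to 123 TPM).

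**Figure D4:**
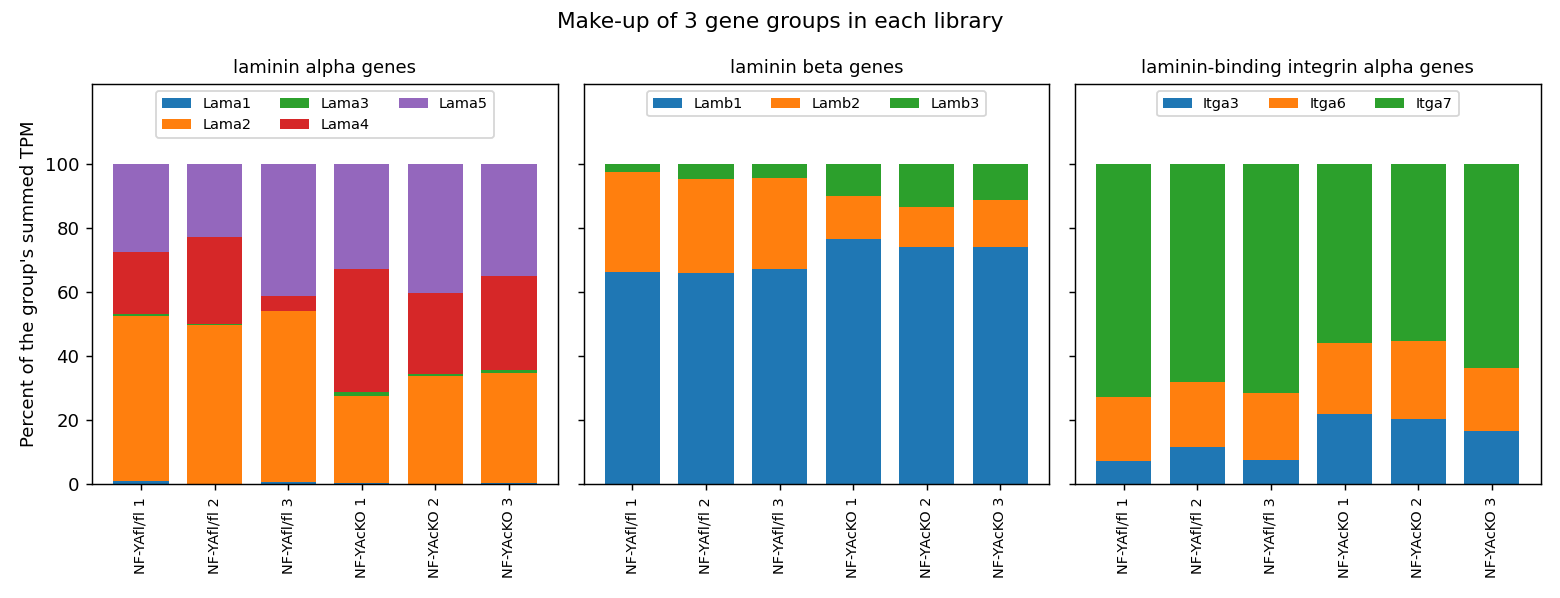
Percent of the summed TPM taken by each gene within the laminin alpha genes, the laminin beta genes and the laminin-binding integrin alpha genes, 1 stacked bar per library (NF-YAfl/fl left, NF-YAcKO right). Lama2, Lamb2 and Itga7 take a smaller share in every NF-YAcKO library than in any NF-YAfl/fl library, and Lamb3 and Itga3 a larger one.

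Genes that work with integrins and laminins were counted from lists. Of 12 genes tested for dystroglycan and other laminin receptors, 3 were called lower (7 at an unadjusted p under 0.05, 6 by DESeq2) and 0 higher (1 at an unadjusted p under 0.05, 0 by DESeq2), with a median log2 fold change of -0.91 beside -0.02 over all genes tested. Dag1, the dystroglycan gene, was at 112 ± 4.49 CPM in NF-YAcKO and 314 ± 80.2 CPM in NF-YAfl/fl (log2 fold change -1.48 ± 0.19, FDR = 0.00172). Dmd, which encodes dystrophin, fell by 3.22 on the log2 scale of counts (SE 0.18, FDR = 9.13e-05). Its fall was smaller in the length-scaled TPM, at 5.25 ± 0.845 in NF-YAcKO and 18.8 ± 4.73 in NF-YAfl/fl. Sgca, a sarcoglycan, fell by 1.93 (SE 0.35, FDR = 0.00623). Markers of differentiated muscle moved the same way, all 12 tested being called lower, with a summed level of 691 to 1531 CPM in NF-YAcKO and 48459 to 59168 CPM in NF-YAfl/fl. Of these Ttn was at 944 ± 352 against 37275 ± 3145 CPM and Myh3 at 15.2 ± 8.54 against 4162 ± 360 CPM. The part of muscle differentiation in the lower Itga7, Lama2, Lamb2 and dystroglycan genes was not tested.

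Of 26 adaptor and focal adhesion genes, 2 were called lower and 0 higher (3 at an unadjusted p under 0.05, 0 by DESeq2), with a median of -0.03. Both belong to muscle: Itgb1bp2, or melusin, fell by 5.74 (SE 0.30, FDR = 8.19e-05) from 44.7 ± 13.1 to 0.821 ± 0.187 CPM, and Flnc, the muscle filamin, fell by 2.27 (SE 0.27, FDR = 0.00142). Of 14 other basement membrane genes 1 was called higher, Ntn4 (40.9 ± 2.35 against 18.6 ± 1.04 CPM, log2 fold change 1.14 ± 0.10, FDR = 0.000518), which encodes a netrin that binds laminin. In the same list 2 were called lower, Nid2 (21.1 ± 5.85 against 98.3 ± 28.9 CPM, FDR = 0.00171), a nidogen that ties laminin to collagen IV, and Hspg2 (1026 ± 55.2 against 2403 ± 731 CPM, FDR = 0.00531), or perlecan. Of 17 other integrin ligands tested, Tnc, a tenascin, was called higher (1129 ± 92.7 against 562 ± 83.9 CPM, log2 fold change 1.01 ± 0.14, FDR = 0.00234) and 0 lower (1 at an unadjusted p under 0.05, 0 by DESeq2). DESeq2 did not call Tnc and called Icam1 in its place. Of 7 tetraspanins tested 0 were called in either direction (1 higher and 1 lower at an unadjusted p under 0.05, 0 by DESeq2).

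The NF-YAfl/fl libraries differed among themselves in these genes. The highest library was 2.12 times the lowest on median over the 29 genes in NF-YAfl/fl and 1.26 times in NF-YAcKO, and the range was wider in NF-YAfl/fl for 27 of the 29. NF-YAfl/fl replicate 3 was the lowest of its group in 18 genes and the highest in 7. In 13 genes it was lowest of all 6 libraries. These were Itga1 (6.005 CPM), Itga11 (2.21 CPM), Itgb3 (4.21 CPM), Itgb7 (1.66 CPM), Lama4 (15.0 CPM), Itga2, Itga5, Itga8, Itgb1, Itgb2, Itgb8, Lama3 and Lamb1. It was highest of all 6 in 5 genes, among them Itga6, Itga7 and Lama5 (259 CPM).

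The summed level of 10 markers listed for fibro-adipogenic progenitors, the mesenchymal cells of muscle, was also lowest in this library, though not every marker was. They summed to 447, 541 and 124.99 CPM in NF-YAfl/fl and to 326 to 382 CPM in NF-YAcKO, led by Gsn (143 ± 16.3 CPM in NF-YAcKO, 179 ± 90.5 CPM in NF-YAfl/fl) and Pdgfra (88.5 ± 13.5 and 100 ± 68.4 CPM), and Clec3b had at most 3 counts in any library. Dpp4, named after its values were seen, was highest of its group there (3.12 CPM against 1.76 and 2.35 CPM). Of the 10 markers, 9 were tested and 2 were called higher. Myod1, the myoblast factor, was at 1146 CPM in that library and at 295 and 361 CPM in the other NF-YAfl/fl libraries. Without it 3 members were called higher and 6 lower, the median log2 fold change over the members moved from -0.08 to -0.43, and all 7 calls made with the 6 libraries were still made. The part of cell make-up in these differences was not tested.

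Of 10 satellite cell and myoblast genes tested 2 were called lower (Des and Cdh15, and 3 by DESeq2) and 0 higher. The list summed to 1666 to 1854 CPM against 2377 to 3742 CPM, and Des differed most in level (327 ± 41.2 against 1392 ± 158 CPM). Myod1 was at 567 ± 58.8 against 601 ± 473 CPM. At an unadjusted p under 0.05 (edgeR) 4 were lower and 3 higher. The 3 were Sdc4, Vcam1 and Pax7, each higher in every NF-YAcKO library. Pax7 did not reach the fold threshold (log2 fold change 0.94, FDR = 0.00624). Of 10 pericyte and smooth muscle genes 3 were called lower (summed level 1603 to 1907 CPM against 3465 to 4286 CPM), led by Acta2 (705 ± 89.7 against 1616 ± 197 CPM), which myoblasts also express, as they do Des. Of 10 Schwann cell genes 5 were called higher and 1 lower (107 to 123 CPM against 156 to 230 CPM), with Erbb3 at 9.11 ± 1.59 against 129 ± 24.1 CPM and Ngfr at 38.5 ± 3.04 against 26.9 ± 28.1 CPM. Of 9 endothelial genes 2 were called higher (25.5 to 30.0 CPM against 8.11 to 17.5 CPM), with Kdr at 8.20 ± 2.58 against 1.29 ± 0.201 CPM and Flt1 at 4.82 ± 0.858 against 5.26 ± 2.53 CPM.

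RSEM also divides each gene among its transcripts, an estimate that rests on the few reads that tell them apart. The 29 genes had 89 transcripts in the files, of which 67 passed the count filter. Of these 0 were called higher (edgeR; 6 at an unadjusted p under 0.05, and 0 by DESeq2) and 2 lower (15 at an unadjusted p under 0.05, and 8 by DESeq2), where 0.39% and 1.01% of all 45367 transcripts tested were. The 2 were NM_010576.3 of Itga4 (log2 fold change -2.96 ± 0.18, FDR = 0.00275) and NM_001159564.1 of Itgb6 (-3.68 ± 0.29, FDR = 0.00414). Leaving out any 1 library but NF-YAfl/fl replicate 3 gave 0 lower calls, and leaving out that one gave 1. Few transcripts can be called at this spread. In counts simulated from these libraries 11.1% of transcripts changed 8-fold were recovered, against 96% of genes, with changes put only in those with a mean above 1 CPM.

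The transcripts of Itga7 were divided differently in the genotypes. XM_017313813.1, a predicted transcript of 4187 nt, took 33.0%, 26.5% and 25.3% of the expected counts of Itga7 in NF-YAfl/fl and 0%, 0.270% and 0.392% in NF-YAcKO. XM_006513267.3, of 4073 nt, took 0%, 0% and 5.19% in NF-YAfl/fl and 13.8%, 17.8% and 17.5% in NF-YAcKO. The main transcript NM_008398.2, of 4022 nt, took 58.4% to 62.2% in NF-YAfl/fl and 69.6% to 73.4% in NF-YAcKO. None of these 3 shares overlapped between the genotypes (two-sided p = 0.1 by exact permutation, which cannot go lower), while the test of the level of XM_017313813.1 missed the threshold (log2 fold change -8.08 ± 1.03, FDR = 0.0122). Which exons set these transcripts apart was not analysed here.

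In other genes too there were shares that did not overlap between the genotypes. In Lama2, NM_008481.2 took 55.8% to 67.6% in NF-YAfl/fl and 11.2% to 53.2% in NF-YAcKO, an uneven spread among NF-YAcKO libraries. In Lamb2, XM_006511648.2 was at 19.0% to 20.0% in NF-YAfl/fl and, less evenly, at 10.3% to 15.7% in NF-YAcKO. This transcript differs from NM_008483.3 by only a single base in length (5623 and 5624 nt). In Itga6, XM_011239308.1 took 0.904% to 8.77% in NF-YAfl/fl and 11.5% to 14.5% in NF-YAcKO. In Lama5 and Lamb1 too the shares did not overlap, with NM_001081171.2 of Lama5 at 73.7% to 79.7% in NF-YAfl/fl and 81.3% to 84.3% in NF-YAcKO, and NM_008482.2 of Lamb1 at 54.9% to 61.8% and 44.2% to 53.1%. Each of these had an exact permutation p of 0.1, which cannot go lower and was not adjusted over the 21 transcripts compared. How often such shares do not overlap over all genes was not counted. For gene levels, all NF-YAcKO libraries were higher in 29.1% and lower in 26.2% of all genes tested. In Itga3, Itgb4 and Lamb3 the shares overlapped between the genotypes.

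**Figure D5:**
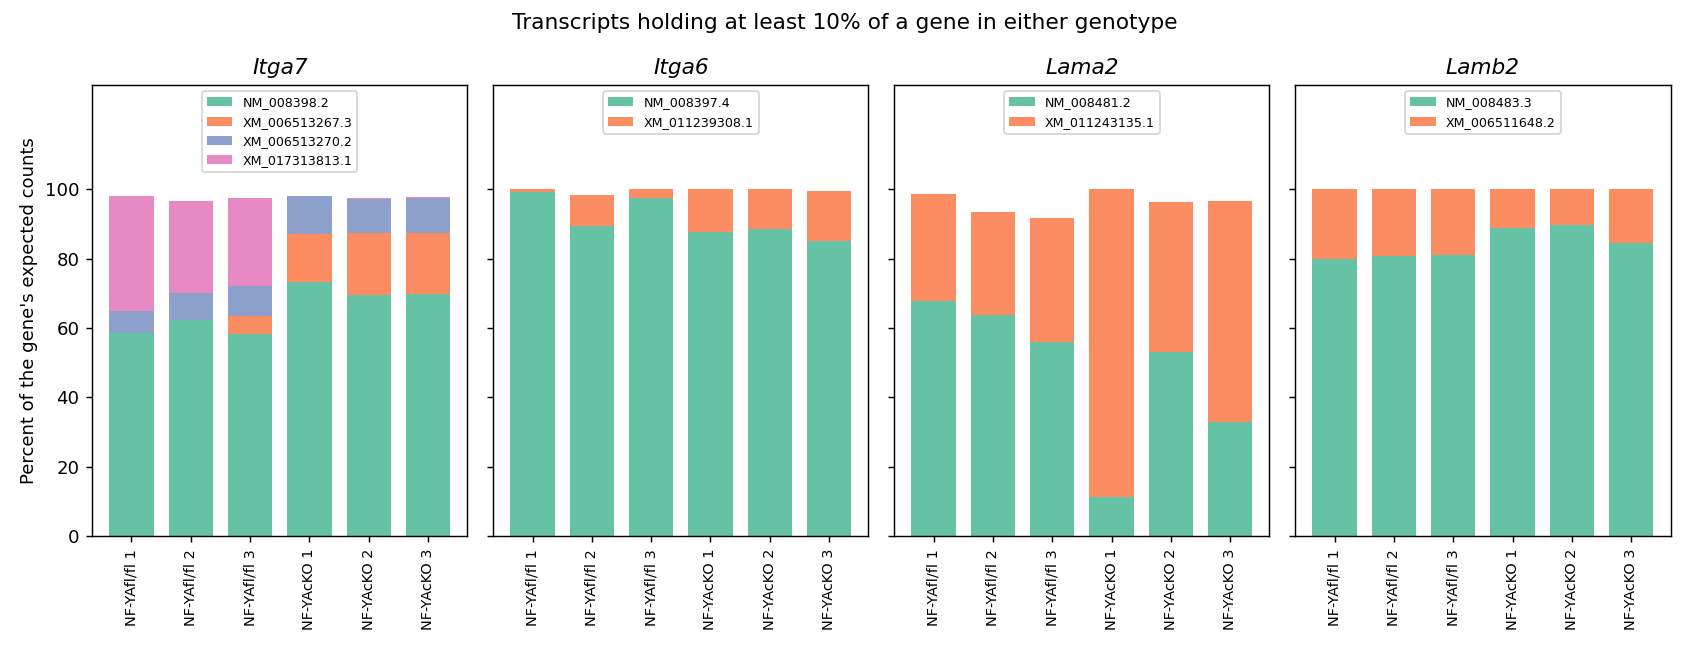
Percent of the expected counts of Itga7, Itga6, Lama2 and Lamb2 assigned to each transcript that holds at least 10% in either genotype, 1 stacked bar per library (NF-YAfl/fl left, NF-YAcKO right). In Itga7 the pink transcript (XM_017313813.1) fills 25.3% to 33.0% of the NF-YAfl/fl bars and at most 0.392% of the NF-YAcKO bars.

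Since NF-Y binds CCAAT, the promoters of the genes were searched for these letters. RefSeq (GRCm38.p6) windows from 250 bases before to 50 after the start matched 19 of the 29 genes with 22 windows, and 6 of the 7 genes called. CCAAT, or ATTGG for the other strand, was present in 3 of the 22 windows (13.64%), where 37.41% of all 32851 windows hold it, and in none of the windows of the 6 called genes. The 3 genes with it, Itga3, Itgb8 and Lamb1, are shown because they carry the letters that NF-Y binds, and none of them was called. The letters CCAAT, in capitals, start 31, 126 and 187 bases before the start that each window is set on. They lie within chr11:95069205-95069249 (minus strand), chr12:119238378-119238422 (minus strand) and chr12:31265086-31265130 (plus strand), in that order. The Itga3 and Itgb8 stretches fall inside the annotated genes (chr11:95044474-95076801 and chr12:119158022-119238802). Their windows thus belong to internal starts and not to the first start of the gene. The Lamb1 stretch lies before its annotated gene (chr12:31265234-31329644), while the start of its window also falls inside the gene, close to its first base.
Itga3: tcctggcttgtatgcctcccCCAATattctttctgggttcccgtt
Itgb8: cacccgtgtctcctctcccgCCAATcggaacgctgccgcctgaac
Lamb1: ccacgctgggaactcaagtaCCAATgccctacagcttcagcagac
A match is a description of the letters and not a binding site, and genes without a match may hold one outside the window.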

How the data were processed

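Total RNA libraries of cultured satellite cells, 3 of NF-YAcKO and 3 of NF-YAfl/fl, were grouped and numbered by their labels. Per the labels and the study's methods, the authors aligned the reads with Bowtie2 against mm10 transcripts and estimated abundance with RSEM. Its expected counts were deposited unnormalized and unfiltered. The deposited TPM values are scaled by length and keep no depth. The deposited percent of a transcript is its share of the TPM of its gene, and shares printed here are of expected counts instead.

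Rounded counts had to exceed 10 in 2 or more libraries. They were fitted with edgeR 4.0.16 (TMM, quasi-likelihood, genotype alone) in R 4.3.3, and p-values were adjusted over all features tested. Calls needed an FDR below 0.01 together with a log2 change beyond 1 either way. A standard error is the fold change over the square root of F. CPM use TMM-scaled library sizes, and TPM served for levels between genes. A first fit, with unrounded counts in the filter and library sizes over all genes, called Itga7 as well. The filter was changed after its values were seen, to follow an earlier description of this processing, and the first fit is kept as an alternative chosen after seeing the data. DESeq2 1.42.0 and limma 3.58.1 on log2(TPM + 1) and log2(TPM + 0.1) were other alternatives. Transcripts were fitted likewise, and shares compared by exact permutation for transcripts holding at least 10% of a gene that had at least 100 counts in each genotype. Changes were simulated only in features with a mean above 1 CPM. On these counts, the fit recovered 77% of genes changed 4-fold and 96% of those changed 8-fold, and 3% and 11.1% of transcripts.

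The members and lists were chosen with earlier results of these data known. Every member is named, and those called or not overlapping have each library's value. Of other lists, up to 4 called genes with the largest change and a mean of at least 1 CPM are named, and of marker lists the 2 most abundant. 1 gene that the name rule takes and 1 gene of a list were fitted with the rest and are not reported here. Others are named as chosen after their values were seen, among them Itgav, Ptprc, Aif1, Epcam, Icam1, Pax7, Cdh15 and the markers at or under 3 counts. Positions are from GENCODE M21 (GRCm38). Same-numbered libraries were not treated as pairs (r at most 0.165 between their deviations), and replicates differed beyond counting noise.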

Additional observations from a re-analysis of the deposited data

How the results depend on the processing

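Itgb6, Itga4 and Itgb2 were called in all 18 alternatives. Testing against a log2 fold change of 1 left 1 member higher and 2 lower (97 and 510 genes in all), the other 4 calls missing the threshold. Leaving out 1 library at a time gave 1 to 3 members higher, 3 to 7 lower, a median log2 fold change of -0.43 to 0.0158, and 177 to 890 genes higher and 523 to 1684 lower. For transcripts it gave 0 to 1 higher and 0 to 1 lower, while DESeq2 called 8 lower. Over all genes, limma on log2(TPM + 1) called 231 higher and 704 lower, limma on log2(TPM + 0.1) 361 higher, an FDR under 0.01 at any fold 1787 higher, and an FDR under 0.05 with the fold threshold 2025 lower. The filter on unrounded counts with full library sizes, chosen after seeing the data, called 2 members higher and 6 lower. For none of these was the cause tested.

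Deviations of same-numbered libraries from their group means correlated at r = 0.165, -0.07 and 0.05, and those of differently numbered ones at -0.138 to 0.0987. With 3 libraries per genotype this cannot settle whether the numbers pair the samples. The replicate block called 2 members higher and 5 lower (Itga7 gained, Itga10 lost) and 0 transcripts lower. It turned the sign of Itga1 (0.067), Itga8 (0.11), Itgb4 (0.0197) and Itgb7 (0.27).

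Other reversed signs were all in uncalled genes. Without a filter Itgb1 was at 0.0126 and Itgb4 at 0.0027, and on the TPM scales Itgb7 was at 0.0322 and 0.21. Leaving out 1 library at a time, the log2 fold change went from -0.45 to 0.17 for Itga1, -0.13 to 0.38 for Itga5, -0.43 to 0.63 for Itga8, -0.10 to 0.0265 for Itgb1, -0.28 to 0.28 for Itgb4, -0.57 to 0.51 for Itgb7, -0.19 to 0.65 for Lama4 and -0.0145 to 0.23 for Lamb1. Of the values of single members under all alternatives, 467 kept direction and side of the threshold, 17 came to pass it, 18 no longer passed it and 20 turned sign.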
